A study of Mus musculus with 4 samples.

Results

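The 10 genes described here encode receptors of the epidermal growth factor (EGF) family and proteins that restrain signalling below them. They are the receptors Egfr, Erbb2 and Erbb3, the receptor inhibitors Errfi1 and Lrig1, the sproutys Spry1, Spry2 and Spry4, and the spreds Spred1 and Spred2. Members were taken by gene symbol, and all 10 were found among the 23282 genes of the table and had enough counts to be tested. They were measured in C2C12 myotubes, multinucleated muscle cells formed by fusion of a mouse myoblast line that the labels give as female. The cells of both groups had been deprived of steroids. For 2 h they were then given either vehicle or dexamethasone at 1 µM, an agonist of the glucocorticoid receptor, with 2 libraries per group and 4 in all. The RNA was taken from washed chromatin pellets, a fraction rich in transcripts still being made. C2C12 is a single established line in culture, and nothing in the labels says whether the libraries of a group came from separate cultures, so p-values measure the spread between these libraries, which may be technical.

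ErbB receptors are tyrosine kinases of the cell surface that pair up when an EGF family ligand binds. ErbB3 has little kinase activity of its own and signals with a partner such as ErbB2, which has no known ligand. Active receptors recruit adaptors that switch on Ras and the ERK MAP kinase cascade. Cells restrain this at several levels. Errfi1 (also called Mig6) binds the kinase domain of ErbB receptors and blocks it, and Lrig1 is a membrane protein that lowers receptor levels. Sproutys and spreds act further down, on the path from receptors to Ras and Raf. In muscle, neuregulin signalling through ErbB2 and ErbB3 is known for its part at the neuromuscular junction and muscle spindle, and sprouty 1 for its part in the quiescence of satellite cells.

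Errfi1 and Lrig1 are the members with the largest differences between the groups, and a promoter window of each of these genes is shown. The sequences run from 250 bases before to 50 after an annotated start and are RefSeq's, on GRCm38.p6. The submitters' processing notes name the older build mm9 for the counts, so these positions do not belong to the count table. RefSeq lists 2 starts for Errfi1, and counts by gene do not tell which was used. The window not shown, at chr4:150853546-150853845, held no match to the motifs described below. The window shown lies on the plus strand at chr4:150854820-150855119, and the Lrig1 window on the minus strand at chr6:94700096-94700395. Capitals mark a match to the cAMP response element TGACGTCA, a sequence bound by CREB-family factors.
Errfi1: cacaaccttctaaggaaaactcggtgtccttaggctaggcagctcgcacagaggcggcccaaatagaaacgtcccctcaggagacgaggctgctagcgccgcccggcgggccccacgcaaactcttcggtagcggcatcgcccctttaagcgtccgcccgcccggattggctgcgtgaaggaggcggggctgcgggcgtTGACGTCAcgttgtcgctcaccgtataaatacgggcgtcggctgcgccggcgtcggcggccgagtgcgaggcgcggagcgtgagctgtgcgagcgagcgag
Lrig1: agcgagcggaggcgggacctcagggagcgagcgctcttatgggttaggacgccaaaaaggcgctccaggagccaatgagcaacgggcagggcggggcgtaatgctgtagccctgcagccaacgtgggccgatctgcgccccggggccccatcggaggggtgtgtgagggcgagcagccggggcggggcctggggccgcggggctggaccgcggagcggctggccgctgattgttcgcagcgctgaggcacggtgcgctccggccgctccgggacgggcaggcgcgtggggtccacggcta
In Errfi1 the match begins 51 bases before the start. Of 32851 promoters of this length, 1.79% hold this motif. Windows were at hand for 8 of the 10 members, 9 windows in all, and this was the single match among them to any of 4 motifs searched on both strands. The other motifs were the glucocorticoid receptor palindrome (GNACA, any 3 bases, TGTNC), found in 0.475% of all promoters, the AP-1 site TGANTCA, found in 7.81%, and the CArG box of serum response factor (CC, 6 of A or T, GG), found in 1.63%. A match describes letters and does not show that a factor binds.

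The libraries held 19631435 to 88596296 counts. Their log2 levels correlated across genes at r = 0.981 and 0.989 between libraries of the same replicate number. Between libraries of the same group r was 0.973 and 0.980. Libraries were thus more alike by number than by treatment. All 12 myotube markers were detected. Levels are given in CPM (counts relative to library size, scaled by the TMM method of edgeR). The myotube markers summed to 130038 and 125582 CPM in the replicate 1 libraries of vehicle and dexamethasone, and to 46026 and 44981 in the replicate 2 libraries. Most of each sum was Ttn, at 118127 and 113355 CPM in the replicate 1 libraries and 41070 and 39943 in the replicate 2 libraries. Markers of undifferentiated or dividing myoblasts summed to 60.7 and 64.6 CPM in vehicle and to 46.9 and 54.4 CPM after dexamethasone. Of these, Pax7, a satellite cell factor, stood at 32.0 and 39.0 CPM against 17.9 and 22.9 CPM (log2 difference -0.80, SE 0.201). Every other marker of this list had a positive difference, from 0.07 in Mki67 to 0.47 in Bub1. Markers of adipocytes summed to at most 0.211 CPM, and those of epithelial, endothelial or blood cells to at most 12.3 CPM. Of 6 fibroblast markers, Lum and Thy1 were listed at 0, and the list summed to 640 and 699 CPM in vehicle and to 538 and 885 CPM after dexamethasone, nearly all of it from Col3a1. Within it Pdgfra was higher after dexamethasone (log2 difference 1.04) and Col1a1 lower (-0.98). The part of these cell mixtures in the results below was not tested. In bulk RNA, fewer cells that express a gene and less RNA per cell cannot be told apart.

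Of the 10 members, Errfi1 was far higher after dexamethasone and Lrig1 was lower. Neither passed the threshold over all genes in the main fit, which has group as its only term. Differences by replicate number count as spread in that fit. In edgeR (quasi-likelihood fit, Benjamini-Hochberg adjustment across 13285 genes) 0 members had an adjusted p under 0.05. The background was 5 genes, or 0.0376%. At an unadjusted p under 0.05, 2 of the 10 members passed, Errfi1 and Lrig1, against 5.78% of all genes. DESeq2's Wald test called both, against 288 genes or 2.17% of all, and limma-voom called 0 members and 0.00% of all genes. In 2 members, Errfi1 and Spry2, the groups did not overlap and dexamethasone was the higher (15.0% of all genes), and in 2, Lrig1 and Spry4, it was the lower (12.9%). The groups overlapped in the other 6. The median log2 fold change of the members was -0.13, beside 0.00 for all genes tested, and 7 of the 10 values were negative.

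**Figure D1:**
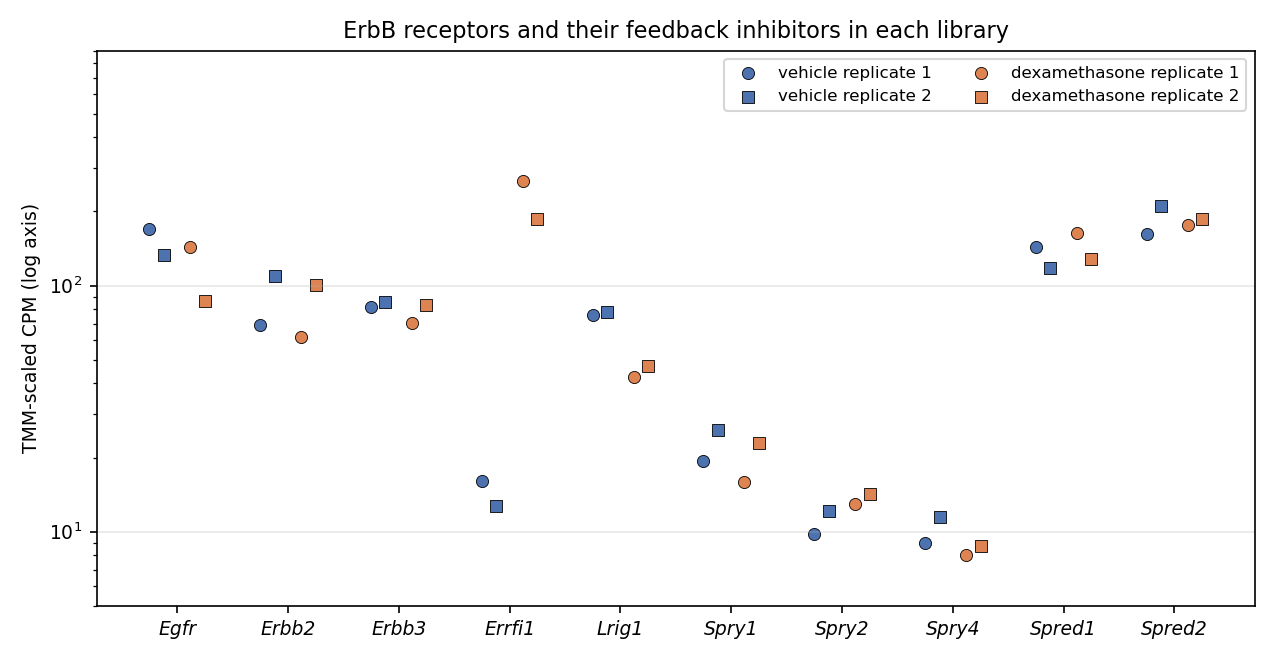
TMM-scaled CPM on a log axis for each member in each library; circles are replicate 1, squares replicate 2, blue vehicle and orange dexamethasone. The orange points of Errfi1, at 187 and 267 CPM, stand far above its blue points at 12.7 and 16.0, those of Lrig1 lie below its blue points, and most other members mix.

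Errfi1 (ENSMUSG00000028967) is an immediate inhibitor of the receptors, made in many cells in response to the signal it blocks. Vehicle libraries held 299 and 482 of its counts, dexamethasone libraries 7999 and 17447. Scaled, these were 16.0 and 12.7 CPM against 267 and 187 CPM. The lowest dexamethasone library thus exceeded the highest vehicle library by more than the whole spread within either group. The means were 14.4 ± 2.36 and 227 ± 56.6 CPM (SD, n = 2 each), and the fitted level was 15.8-fold higher (95% interval 9.78 to 25.6). On the log2 scale the difference was 3.98 (SE 0.262), with an edgeR unadjusted p of 4.47e-05 and an adjusted p of 0.0989. It held rank 12 from the top by fold change among 13285 genes and rank 6 by p-value. Between the replicate 1 libraries alone the log2 difference was 4.05, and between the replicate 2 libraries alone 3.87. Across 13 alternative settings the adjusted p ran from 2.47e-41 (DESeq2's Wald test) to 0.116 (limma-voom), and 9 of them put Errfi1 under 0.05, among them library size scaling (edgeR, 0.0393), a test without a count filter (edgeR, 0.0154) and each fit without a single library. An antisense gene within Errfi1, 1700045H11Rik, had 1 to 30 counts per library.

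Lrig1 (ENSMUSG00000030029), the transmembrane protein that promotes loss of ErbB receptors from the membrane, had 1413 and 2968 counts in vehicle and 1274 and 4378 after dexamethasone. Its scaled levels were 75.8 and 78.2 CPM in vehicle and 42.5 and 46.9 CPM after dexamethasone. Vehicle libraries agreed closely with each other, and both dexamethasone libraries lay well under them. The means were 77.0 ± 1.71 and 44.7 ± 3.10 CPM (SD, n = 2 each), and the fitted level after dexamethasone was 0.581 of that in vehicle (95% interval 0.459 to 0.735). The log2 difference was -0.78 (SE 0.129), with an edgeR unadjusted p of 0.00236 and an adjusted p of 0.209. It was -0.83 between the replicate 1 libraries and -0.74 between the replicate 2 libraries. The myoblast marker Pax7 had a value of similar size (-0.80), while every other marker of its list had a positive difference whose 95% interval crossed 0. The part of these markers in the Lrig1 difference was not tested. DESeq2's Wald test (adjusted p 0.00667) and edgeR's likelihood ratio test (adjusted p 0.0125) called it lower. So did edgeR with the replicate number as a block (adjusted p 0.000629), in a fit that called 1681 of 13285 genes. These were 3 of 13 alternative settings. Among those that did not call it were limma-voom (adjusted p 0.220) and library size scaling (edgeR, adjusted p 0.527). Lrig1 overlaps Slc25a26 on the opposite strand, which had 777 and 2326 counts in vehicle and 1520 and 6220 after dexamethasone. These counts are not scaled for depth, and library totals ran from 19631435 to 88596296. Whether the counting used strand is not given in the sources used here.

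**Figure D2:**
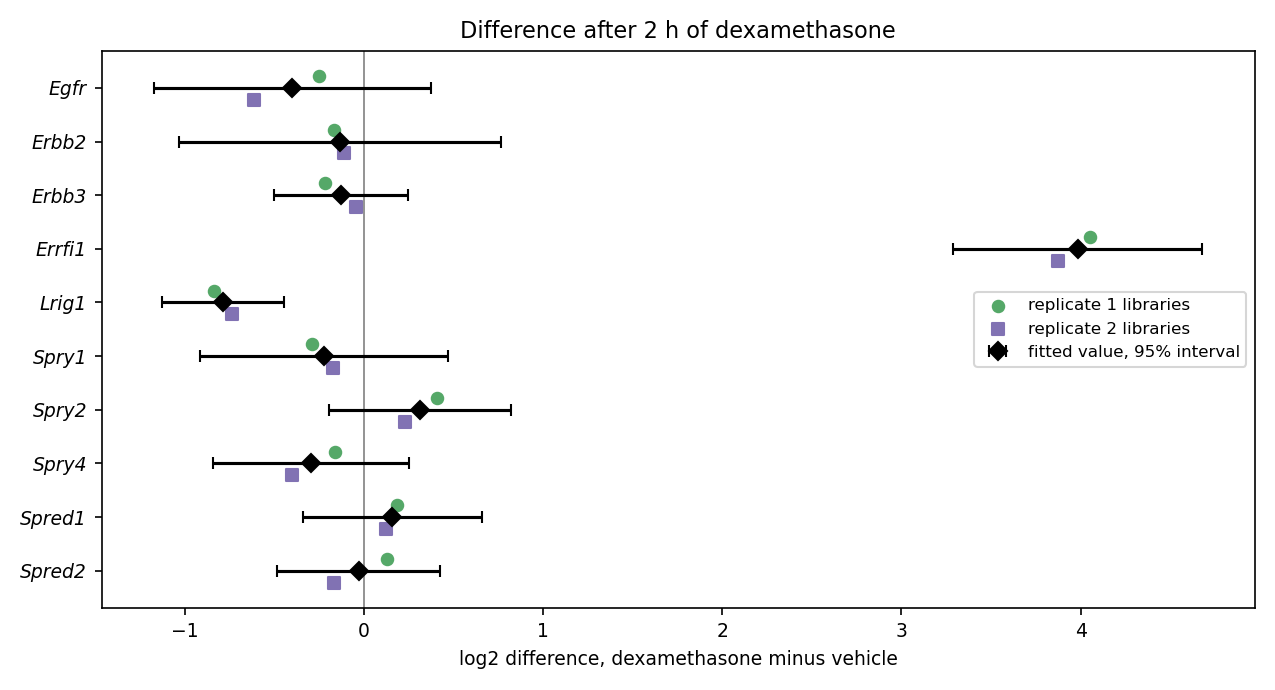
Log2 difference of dexamethasone minus vehicle for each member. Diamonds with bars are the edgeR fit with its 95% interval, circles the difference between the replicate 1 libraries and squares that between the replicate 2 libraries. Errfi1 stands near 4 and Lrig1 near -0.8, and the intervals of the other 8 members cross 0.

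Among the receptors, fitted values after dexamethasone were under those of vehicle in all 3, and the groups overlapped in each. Egfr (ENSMUSG00000020122), the receptor of EGF itself, stood at 170 and 133 CPM in vehicle and at 143 and 86.5 CPM after dexamethasone. Its groups overlapped, and replicate 1 was the higher library in both. The log2 difference was -0.40 (95% interval -1.17 to 0.37). Erbb2 (ENSMUSG00000062312), the partner receptor without a known ligand, stood at 69.1 and 109 CPM in vehicle and at 61.5 and 101 CPM after dexamethasone. Here replicate 2 was the higher library in both groups, by 0.66 and 0.71 on the log2 scale, more than the difference between groups of -0.13 (95% interval -1.03 to 0.76). Erbb3 (ENSMUSG00000018166), a neuregulin receptor, stood at 81.8 and 85.8 CPM in vehicle and at 70.3 and 83.1 CPM after dexamethasone. It varied least of the receptors and differed by -0.13 (95% interval -0.50 to 0.25). The edgeR adjusted p was 0.9999 for each of the 3 receptors in the fit by group alone. Without vehicle replicate 2 the difference in Erbb2 became 0.23, and without dexamethasone replicate 1 it became 0.18. Egfr, like the summed myotube markers, was higher in the replicate 1 libraries and Erbb2 in the replicate 2 libraries, and the part of the markers in these values was not tested. In Egfr the differences between same-numbered libraries were -0.25 and -0.61, both negative. With the replicate number as a block, edgeR called Egfr lower (adjusted p 0.0263), in a fit that called 1681 of 13285 genes. The lower end of the interval was 0.706-fold for Erbb3 and 0.444-fold for Egfr.

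Sproutys bind adaptors and kinases below the receptors once growth factor is present. Spry1 (ENSMUSG00000037211) stood at 19.4 and 25.8 CPM in vehicle and at 15.9 and 22.9 CPM after dexamethasone, overlapping groups with a log2 difference of -0.22 (95% interval -0.91 to 0.47). Spry2 (ENSMUSG00000022114), which also binds the ubiquitin ligase Cbl, stood at 9.76 and 12.1 CPM in vehicle and at 12.98 and 14.2 CPM after dexamethasone. The groups of Spry2 did not overlap, but the gap between them was under the distance between its vehicle libraries. Its log2 difference was 0.31 (95% interval -0.20 to 0.82). Spry4 (ENSMUSG00000024427) stood at 9.01 and 11.5 CPM in vehicle and at 8.04 and 8.71 CPM after dexamethasone, with a log2 difference of -0.30 (95% interval -0.84 to 0.25). It too did not overlap, by a narrow margin, and it had the fewest counts of the sproutys in vehicle, 168 and 437. The difference in Spry1 was 0.00 without vehicle replicate 2 and 0.01 without dexamethasone replicate 1. The edgeR unadjusted p was 0.435 for Spry1, 0.172 for Spry2 and 0.218 for Spry4. Spry2 and Spry4 thus had values of opposite sign, a contrast that was not itself tested.

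Spreds carry a sprouty-like domain and bring the Ras inhibitor neurofibromin to the membrane. Spred1 (ENSMUSG00000027351) stood at 144 and 118 CPM in vehicle and at 164 and 128 CPM after dexamethasone. Groups overlapped, and the log2 difference was 0.16 (95% interval -0.34 to 0.66). Spred2 (ENSMUSG00000045671) stood at 161 and 210 CPM in vehicle and at 177 and 187 CPM after dexamethasone, with a log2 difference of -0.03 (95% interval -0.48 to 0.42). Both dexamethasone libraries of Spred2 fell between its vehicle libraries. For Spred2 the interval leaves room for a level between 0.715 and 1.34 times that of vehicle. Without dexamethasone replicate 1 the sign of the difference turned in Spred1 (-0.03) and in Spred2 (0.01), and in Spred2 also without vehicle replicate 2 (0.17).

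Counts of the inhibitors were also set against those of the receptors in the same library, a ratio that does not depend on depth or scaling and was chosen after the values were seen. For each 100 counts of Egfr, Erbb2 and Erbb3 together, Errfi1 had 4.99 and 3.88 counts in vehicle and 97.0 and 69.1 after dexamethasone. Lrig1 had 23.6 and 23.9 in vehicle and 15.4 and 17.3 after dexamethasone. In these ratios, too, Errfi1 lay higher and Lrig1 lower in both dexamethasone libraries. Spry2 went the way of Errfi1 on a small scale, at 3.04 and 3.70 against 4.72 and 5.26. Spred1, at 44.8 and 36.0 against 59.5 and 47.5, and Spred2, at 50.2 and 64.1 against 64.2 and 69.2, separated narrowly on this ratio with dexamethasone higher, which neither did in CPM. Spry1, at 6.04 and 7.89 against 5.77 and 8.46, overlapped. Spry4 no longer separated, at 2.80 and 3.52 against 2.92 and 3.22. The 3 genes of the denominator each had a negative difference. How many of all genes separate on this ratio was not computed, so these separations have no background share beside them. The ratios show unequal values within a library and not that the receptors were constant.

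Levels of different genes were compared per kilobase of merged exon (GENCODE M21 lengths). In vehicle, Spred2 was highest of the 10 at 40.2 ± 7.40 CPM per kb of exon (SD, n = 2), above Spred1 at 19.3 ± 2.74. Erbb2 (17.1 ± 5.40), Erbb3 (13.9 ± 0.467), Lrig1 (13.8 ± 0.306) and Egfr (13.4 ± 2.37) followed, and neighbours in the order from Spred1 to Egfr overlapped. Egfr did not overlap Spry1 below it. Spry1 (7.78 ± 1.56), Spry2 (5.24 ± 0.799), Errfi1 (4.01 ± 0.659) and Spry4 (2.16 ± 0.372) came last, and their libraries did not overlap from 1 to the next. Errfi1 was therefore ninth in vehicle. After dexamethasone it was first at 63.3 ± 15.8 CPM per kb of exon, above Spred2 at 39.4 ± 1.61, and the libraries of these genes did not overlap. Lrig1 was seventh at 8.003 ± 0.555, overlapping Egfr above it and Spry1 below it.

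Per kilobase of the whole gene the order was another, since these genes differ in how much of them is intron. Spry1, a short gene, then led in vehicle at 4.86 ± 0.974 CPM per kb of gene (SD, n = 2), and Errfi1 was seventh at 0.960 ± 0.158, overlapping Egfr. After dexamethasone Errfi1 was again first, at 15.2 ± 3.78 CPM per kb of gene, and did not overlap Spry1 at 4.17 ± 1.06. Lrig1 was ninth in vehicle at 0.805 ± 0.0179 and last after dexamethasone at 0.467 ± 0.0324. Whether introns were counted is not given in the sources used here, so both scales are shown. On either, Errfi1 led the 10 genes after dexamethasone and did not in vehicle.

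**Figure D3:**
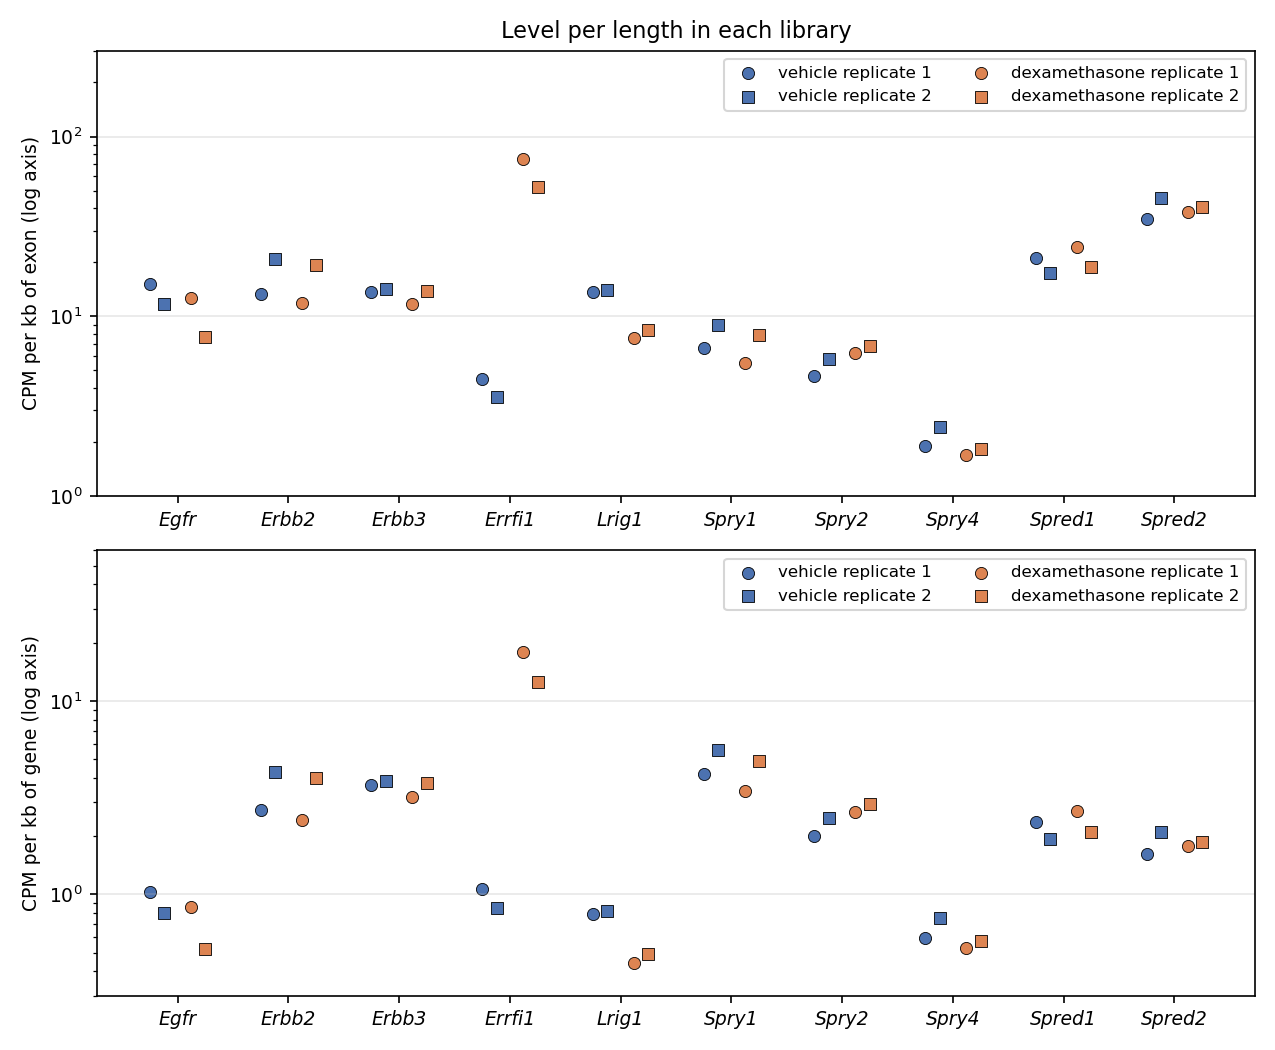
Level per length of each member in each library, on log axes: CPM per kb of merged exon above, CPM per kb of whole gene below, with colours and symbols for group and replicate as in the legend. Errfi1 moves from among the low genes in vehicle to the top after dexamethasone in both panels, at 63.3 CPM per kb of exon and 15.2 CPM per kb of gene on average.

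The 5 genes whose profile over the 4 libraries was nearest that of Errfi1 were Pi15, Mertk, Mt2, Rgs2 and Ace, among 12234 compared. Likeness was the root mean square distance between log2 CPM values centred on each gene's mean, and with 4 libraries it describes a pattern and tests nothing. Pi15, a secreted peptidase inhibitor, was nearest at 0.168, with 5.36 and 3.79 CPM in vehicle and 83.3 and 45.9 CPM after dexamethasone. Mertk, a receptor tyrosine kinase of another family, was at 0.210, with 12.02 and 13.5 against 207 and 179 CPM. Mt2, a metallothionein, was at 0.304 (1.61 and 2.21 against 32.7 and 20.5 CPM), and Rgs2, a regulator of G-protein signalling, at 0.305 (1.93 and 1.32 against 31.3 and 13.4 CPM). Ace, the angiotensin-converting enzyme, was at 0.365 and had 2 and 6 counts in vehicle, so its place rests on few reads. Their log2 differences ran from 3.77 in Mt2 to 3.91 in Mertk, the one of them that passed the threshold (edgeR adjusted p 0.0429).

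**Figure D4:**
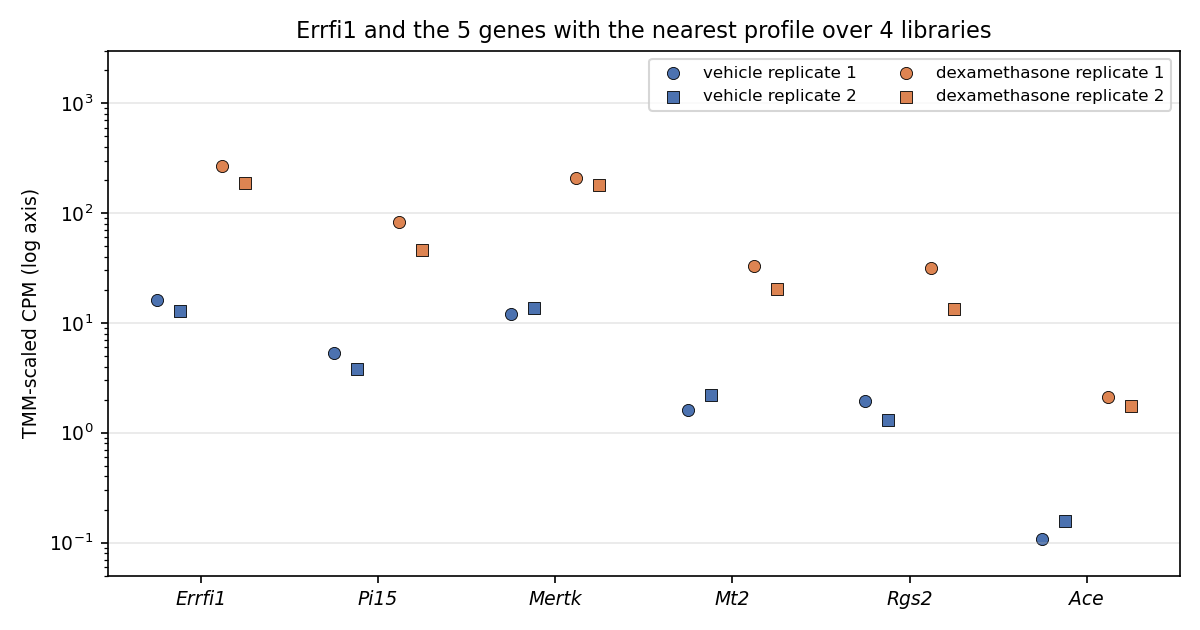
TMM-scaled CPM on a log axis of Errfi1 and the 5 nearest genes in each library, coloured by group and shaped by replicate. In each gene both dexamethasone points lie far above both vehicle points, and in Errfi1, Pi15 and Rgs2 replicate 1 is the higher library in both groups.

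Around the members, 6 lists of pathway genes were examined, with 76 genes, of which 70 were tested. In edgeR 0 passed an adjusted p under 0.05 and 11 had an unadjusted p under 0.05 (5.78% of all genes), of which 6 had positive and 5 negative differences. DESeq2's Wald test called 3 higher, Cblb, Adam12 and Ksr1, against 2.17% of all genes. Their median log2 fold change was -0.13, beside 0.00 for all genes tested. The groups did not overlap in 30 of the 70, with dexamethasone higher in 11 (15.0% of all genes) and lower in 19 (12.9% of all genes).

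EGF family ligands had a median log2 fold change of -0.40 over the 9 of 11 tested, with 3 positive and 6 negative. Tgfa, which encodes transforming growth factor alpha, a ligand of the EGF receptor, had 7 and 10 counts in vehicle and 34 and 88 after dexamethasone. That is 0.376 and 0.264 CPM against 1.13 and 0.943 CPM, a low level that separated the groups by a log2 difference of 1.72 (SE 0.427). Hbegf, the heparin-binding ligand, stood at 5.15 and 6.85 CPM in vehicle and at 3.47 and 3.71 CPM after dexamethasone, a difference of -0.75 (SE 0.249). Areg (amphiregulin) and Btc (betacellulin) also lay lower in both dexamethasone libraries, at -0.84 (SE 0.374) and -1.04 (SE 0.508), each with 13 to 75 counts per library. The edgeR unadjusted p was 0.0120 for Tgfa and 0.0339 for Hbegf, and the adjusted p 0.440 and 0.730. Nrg1, a ligand of ErbB3, had 1204 to 6261 counts per library and a difference of -0.17 (SE 0.157).

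Other growth factor receptors, in a list of 11 that were all tested, had a median of -0.34, with dexamethasone higher in 3 (15.0% of all genes), lower in 4 (12.9%) and overlapping in 4. Pdgfra, a platelet-derived growth factor receptor found in mesenchymal cells, stood at 6.12 and 4.30 CPM in vehicle and at 9.14 and 12.05 CPM after dexamethasone, a log2 difference of 1.04 (SE 0.278). Its relative Pdgfrb went the other way, from 127 and 205 CPM to 69.2 and 107 CPM (-0.92, SE 0.329). Met, the receptor of hepatocyte growth factor, differed by -0.48 (SE 0.220). Lrig3, a relative of Lrig1, stood at 90.3 and 111 CPM in vehicle and at 72.6 and 83.3 CPM after dexamethasone, a difference of -0.37 (SE 0.166), and Lrig2 differed by -0.04 (SE 0.120).

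Partners of sproutys and Ras inhibitors numbered 8, of which 6 were tested. Cblb, a ubiquitin ligase that marks activated receptors for degradation, had 439 and 410 CPM in vehicle and 1097 and 835 CPM after dexamethasone. Its libraries separated clearly, with a log2 difference of 1.19 (SE 0.186) and an edgeR adjusted p of 0.201, or 6.10e-05 in DESeq2's Wald test. Cav1, the caveolin that coats membrane pits holding receptors, stood at 34.2 and 32.9 against 67.6 and 49.0 CPM (0.80, SE 0.200). Nf1, the neurofibromin that spreds recruit, differed by 0.0048 (SE 0.131), and the kinase gene Tesk1 by -0.36 (SE 0.201).

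Shedding and turnover genes, 13 in all and all tested, centred on a median of 0.02. Adam12, a metalloprotease that can release EGF family ligands, had 145 and 117 CPM in vehicle and 247 and 206 CPM after dexamethasone, a log2 difference of 0.79 (SE 0.179). Socs5, a suppressor that binds the EGF receptor, stood lower at 79.2 and 101 against 45.0 and 64.4 CPM (-0.72, SE 0.239). Adam17, the main sheddase of EGF receptor ligands, differed by -0.09 (SE 0.126). The edgeR adjusted p was 0.367 for Adam12 and 0.729 for Socs5.

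Adaptors, Ras proteins and MAP kinases had a median of -0.07 over 17 tested of 19. Ksr1, a scaffold of the ERK cascade, stood at 48.8 and 56.2 CPM in vehicle and at 83.4 and 118 CPM after dexamethasone, a log2 difference of 0.94 (SE 0.216). Gab1, an adaptor of several receptors, stood at 132 and 130 against 88.7 and 104 CPM (-0.45, SE 0.136). Mapk3 and Sos2 differed by -0.22 (SE 0.206) and -0.17 (SE 0.123).

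Genes induced by ERK, 14 tested of 14, had a median of -0.20, with 3 positive and 11 negative. Dusp4, a phosphatase that inactivates ERK, stood at 4.18 and 5.01 CPM in vehicle and at 1.87 and 3.03 CPM after dexamethasone, a log2 difference of -0.90 (SE 0.336). Etv1, an ETS factor, stood at 21.5 and 16.3 against 13.7 and 12.4 CPM (-0.53, SE 0.203), and Ier3 differed by -0.34 (SE 0.290). Myc went the other way, from 30.1 and 19.9 CPM to 48.1 and 32.7 CPM (0.69, SE 0.300). The edgeR unadjusted p was 0.0488 for Dusp4, 0.0516 for Etv1 and 0.0743 for Myc, with an adjusted p of 0.856 to 0.977.

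**Figure D5:**
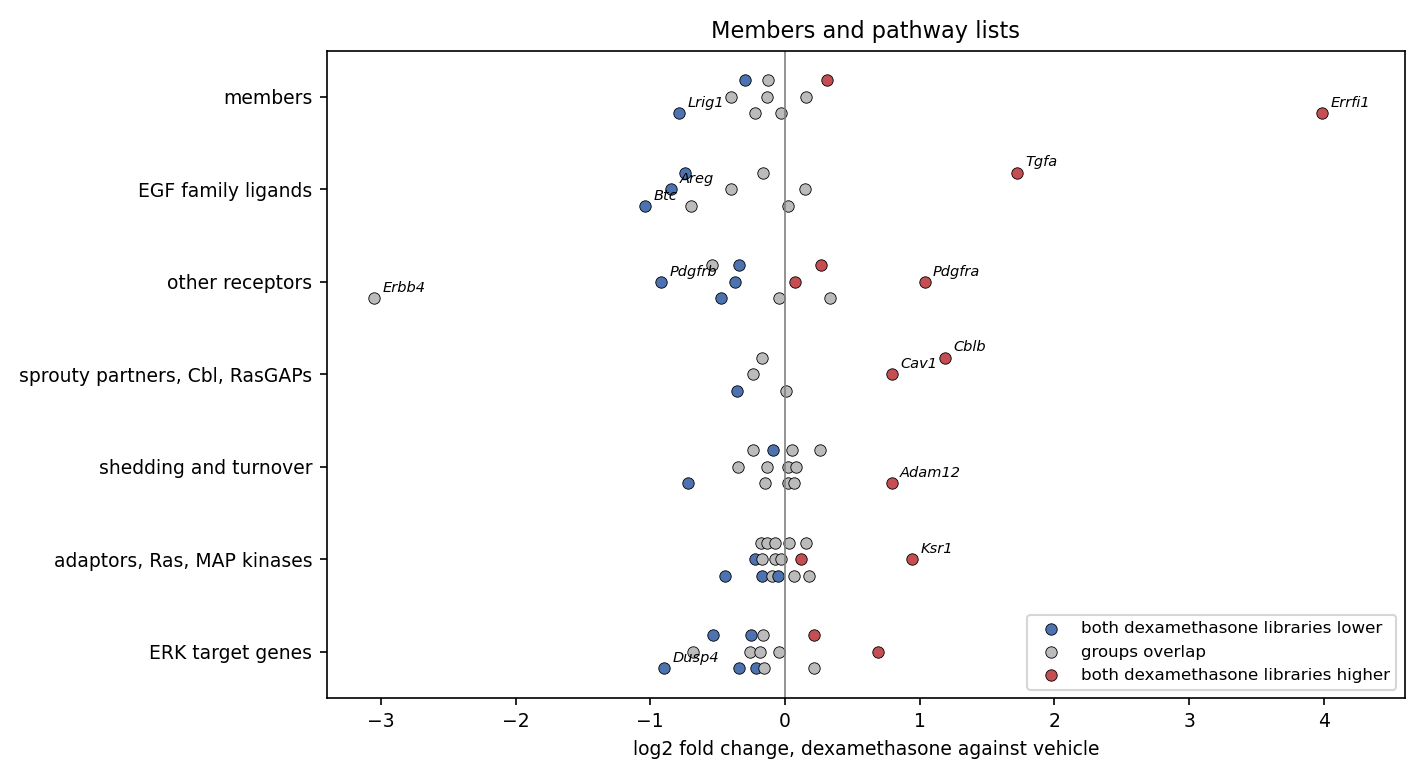
Log2 fold change of dexamethasone against vehicle for the 10 members and the tested genes of 6 pathway lists, 1 point per gene, spread vertically for legibility. Red points are genes with non-overlapping groups and higher values after dexamethasone, blue points those with lower values, and grey points overlap; Errfi1 at 3.98 lies farthest from 0, and Erbb4 at -3.05 is grey.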

How the data were processed

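Chromatin-bound nuclear RNA of 4 C2C12 libraries was sequenced. The table that the authors deposited holds unnormalized read counts by gene; per the submitters' processing notes TopHat2 2.0.13, SAMtools 1.1, HTSeq 0.6.1, DESeq2 1.18.1 and the build mm9 were used, in roles not stated. The labels name both a stranded total RNA and a stranded mRNA kit. Of 23333 rows, 51 that repeat a gene and its counts were used once. Groups come from the titles, and columns were matched to samples by name (Control to vehicle).

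A low-count filter (filterByExpr by group, minimum count 10, total 15) left 13285 genes, which were scaled by TMM (factors 0.950, 1.08, 0.924 and 1.05 for vehicle 1 and 2, dexamethasone 1 and 2) and tested with edgeR 4.0.16 (R 4.3.3), quasi-likelihood, two-sided, group as the only term, Benjamini-Hochberg over all genes. SEs are the log2 fold change over the root of F; intervals use its total degrees of freedom. Library log2 values have a prior count of 2. Scripts were tested on simulated data. Alternatives used DESeq2 1.42.0 and limma 3.58.1.

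From each pathway list up to 4 genes were named by size of change. Their groups did not overlap, and both libraries of the higher group had 20 counts or more. The 5 genes most like Errfi1 needed 20 counts in each dexamethasone library. Other genes (Nrg1, Lrig2, Nf1, Erbb4, Pax7, Mki67, Bub1, Ttn, Col1a1, Col3a1 and genes at 0) were chosen after their values were seen. Members and lists were chosen with earlier results of these data known.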

Additional observations from a re-analysis of the deposited data

How the results depend on the processing

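The number of members called, 0 in edgeR's quasi-likelihood test (at an unadjusted p under 0.05, Errfi1 higher and Lrig1 lower), was 1 with library size only, 1 with no filter beyond 1 count, 2 under DESeq2's Wald test, 2 under edgeR's likelihood ratio test, and 1 in each of the 4 fits without a single library. Errfi1 was called in all of these, and Lrig1 in the fits that called 2. Over all genes the 5 calls became 23 with no filter, 288 under DESeq2's Wald test, 288 under the likelihood ratio test and 0 under limma-voom (where 540 had positive and 231 negative differences with an unadjusted p under 0.05), and 4 to 64 without a single library. Pathway list genes called went from 0 to 3 under DESeq2's Wald test and 3 under the likelihood ratio test. The cause was not tested. A replicate block on the libraries' numbers gave calls in 1681 of 13285 genes, 3 of 10 members and 17 of 70 pathway genes. The members were Errfi1 (higher), Lrig1 and Egfr (both lower), with edgeR adjusted p of 1.73e-05, 0.000629 and 0.0263 in that order. The labels do not say what the number marks; differences of replicate 2 from replicate 1 correlated between groups at r = 0.734 across genes, and with 2 pairs the numbers were not taken as pairing the libraries.

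Of 90 member values under settings that kept all 4 libraries, 81 kept direction and side of the threshold, 9 passed it newly and 0 reversed; of 40 without a single library, 7 reversed. Across those fits, in which a lone library is assumed to vary like the others, Erbb2 ran from -0.53 to 0.23 (0.178 without dexamethasone replicate 1), Spry1 from -0.51 to 0.0137 (0.0008 without vehicle replicate 2), Spred1 from -0.028 to 0.32, Spred2 from -0.21 to 0.17, Egfr from -0.81 to -0.08, Errfi1 from 3.70 to 4.22 and Lrig1 from -0.86 to -0.72. Spry2 and Spry4 had the fewest counts in vehicle, 168 to 460 per library, with SEs of 0.192 and 0.207, under those of Egfr (0.292) and Erbb2 (0.339).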

Other observations

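Erbb4, the neuregulin receptor outside the members, had 167 and 6 counts in vehicle and 24 and 31 after dexamethasone. Its single high library was vehicle replicate 1, the groups overlapped, and the fitted log2 difference of -3.05 (SE 1.73) had an edgeR unadjusted p of 0.144. Between the replicate 2 libraries the difference was 0.89, of the other sign.

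Cbl, the ubiquitin ligase that sprouty 2 binds, Map2k1 and Araf, kinases of the ERK cascade, and the ligand Nrg4 were listed at 0 in every library. By the gene order of GENCODE M21 each lies in a stretch of same-strand neighbours that are all listed at 0, 164 genes long for Cbl, 371 for Map2k1 and Nrg4 and 99 for Araf, so they were not read as silent. Spry3 was listed at 0 as well.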
